A study of Mus musculus with 24 samples.

Results

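Respiratory complex I was followed here as the protein-coding genes whose symbol starts with Nduf together with the mt-Nd genes of the mitochondrial genome. Of 53 genes chosen by symbol, 52 had 3 or more counts in at least 6 of 24 libraries and were kept as members, 46 of them nuclear and 6 mitochondrially encoded, out of 36824 genes with at least 1 count. The gene left out was mt-Nd4l, which reached 3 counts in 5 libraries, and mt-Nd3 just passed with 6 libraries. The nuclear members held 36 subunits of the complex, 8 assembly factors, and Ndufa4 and Ndufa4l2, whose products are counted with cytochrome c oxidase and not with complex I. A further 5 Nduf symbols belong to another gene type and were not members, among them Ndufb1-ps, annotated as a long non-coding RNA.

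Ileum, the last stretch of the small bowel, was taken from 24 mice of the inbred strain C57BL/6N, and its RNA was sequenced after rRNA depletion. The groups were control diet with 10 kcal percent fat (CD), the same diet with metformin (CDmetf), high-fat diet with 60 kcal percent fat (HFD), and high-fat diet with metformin (HFDmetf). All animals were on their diet for 20 weeks, and then metformin was added to the drinking water of the 2 treated groups for 10 weeks at 50 mg per kg body mass and day. Each group held 6 animals, 3 males and 3 females, and a library is named by group, sex and replicate number, as in CD M1. Each of the replicate numbers 1, 2 and 3 thus covered 8 libraries, 2 of each group, and whether the numbers are the blocks in which cages were organized is not stated. The model is diet-induced, no animal carried a modified gene, and the labels give no age.

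Complex I is the entry point of NADH electrons into the mitochondrial respiratory chain. Its peripheral arm carries the N module, which oxidizes NADH, and the Q module, which passes the electrons to ubiquinone, and its membrane arm pumps protons. The mt-Nd genes encode hydrophobic subunits at the core of the membrane arm and are transcribed inside the organelle, whereas all other subunits are made from nuclear genes and imported, and assembly factors join the modules. Inhibition of complex I is among the actions described for metformin, and absorptive enterocytes of the ileum are rich in mitochondria.

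Gene counts per library ranged from 1829690 to 40606442. In CD M3, 84.2% of the counts fell on rRNA-like genes, in HFDmetf F2 33.5%, and in the other 22 libraries 1.56% to 11.1%. The library labelled HFD M2 held 3355 counts of Xist and 0 of Y-linked genes, and the library labelled HFD F2 held 1 and 423, which goes against both labels. Levels below are CPM, the counts of a gene scaled to a common library size after TMM normalization. All 8 epithelial markers and all 3 ileal markers (Fabp6, Slc10a2, Fgf15) were detected, the ileal ones at a summed 5.72 to 3653 CPM. The lowest sum was that of HFD M3, with Fgf15 at 0, and the next was 58.4 CPM in CD M1. In tissue pieces, fewer cells of a type and less RNA per cell cannot be told apart.

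The shortest mt-Nd genes have near-identical copies in the nuclear genome. The reference holds pseudogenes of mt-Nd3, mt-Nd4l and part of mt-Nd4 side by side on chromosome 1 (GRCm38, minus strand): Gm28438 at chr1:24612775-24613119, Gm10222 at chr1:24612407-24612700 and Gm28439 at chr1:24611535-24612410. Gm28438 matched mt-Nd3 at 344 of 345 aligned bases, with T3C as the difference (the mt-Nd3 base first, positions counted from its first base). Gm10222 matched mt-Nd4l at 294 of 294 bases, and Gm28439 matched mt-Nd4 at 876 of 876. The start of both short genes is shown from the GENCODE M21 transcripts to show how little they differ from the copies: the capital marks the base that differs from the copy, and mt-Nd4l has none in the aligned part.
mt-Nd3 (first 150 of 348 bases, chrM:9459-9608, plus strand): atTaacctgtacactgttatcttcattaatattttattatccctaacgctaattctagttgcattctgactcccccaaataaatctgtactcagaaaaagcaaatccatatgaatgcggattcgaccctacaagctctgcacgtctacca
mt-Nd4l (first 150 of 297 bases, chrM:9877-10026, plus strand): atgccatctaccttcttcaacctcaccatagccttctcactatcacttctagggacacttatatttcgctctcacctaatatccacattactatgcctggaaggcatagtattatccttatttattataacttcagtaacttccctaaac

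A read that fits equally well in several places is not assigned to a gene by the counting used. Of all 100-base stretches of the transcript, 97.6% of mt-Nd3, 98.5% of mt-Nd4l and 60.8% of mt-Nd4 also occurred in another annotated transcript, compared with 3.19% of mt-Nd2 and 0% of mt-Nd1, mt-Nd5 and mt-Nd6. mt-Nd3, a subunit of the membrane arm, was listed at 0 in 14 libraries and had 1 to 3 counts in 5. In the other 5 libraries, all of replicate number 3, it had 21 counts in CDmetf M3, 21 in HFDmetf F3, 34 in HFD F3, 35 in CD F3 and 180 in CDmetf F3. The same 5 libraries held all mt-Nd4l counts above 1, from 22 in HFDmetf F3 to 100 in CDmetf F3. They also had 87.6 to 230 CPM (of raw gene counts) on a set of chromosome 1 copies, against 2.23 to 24.1 in the other 19 libraries. That set held the copies above and their neighbours Gm28437, Gm10925, Gm28661 and Gm29216, which share stretches with mt-Co3, mt-Atp6, mt-Co2 and mt-Co1. Over all libraries Gm29216 had 6323 counts, compared with 2169 for Gm28438, 366 for Gm10222 and 1177 for Gm28439. The 5 libraries are referred to below as the 5 copy-read libraries. These 5 were singled out by those reads after the data were seen. The counts of mt-Nd3, mt-Nd4l and mt-Nd4 are uncertain because of the shared stretches. Neither mt-Nd3 nor Ndufa4l2 passed edgeR's filter on low counts, so 45 nuclear and 5 mitochondrially encoded members were tested.

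The summed level of the nuclear members varied less between libraries than that of the mitochondrially encoded members. Summed over the 46 nuclear members, the level ran from 1336 to 1732 CPM in CD (median 1522), from 1384 to 1787 in CDmetf (median 1512), from 1403 to 2463 in HFD (median 1537) and from 1366 to 1738 in HFDmetf (median 1511). The highest sum was that of HFD F2, and all 4 ranges overlapped. Summed over the 6 mitochondrially encoded members, the level ran from 2939 to 30213 CPM in CD (median 9125), from 3997 to 20458 in CDmetf (median 6705), from 2432 to 36994 in HFD (median 6351) and from 2302 to 26757 in HFDmetf (median 5413). The highest mitochondrial sum was 16.1 times the lowest, compared with 1.84 times for the nuclear sum. These folds depend on the scaling: with raw library sizes they were 13.4 and 8.83, since CD M3, whose TMM factor was 0.189, then had a nuclear sum of 280.5 CPM. The ratio of the 2 sums does not depend on the library size, and it ranged from 1.45 in HFDmetf F3 to 20.3 in CD M3.

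**Figure D1:**
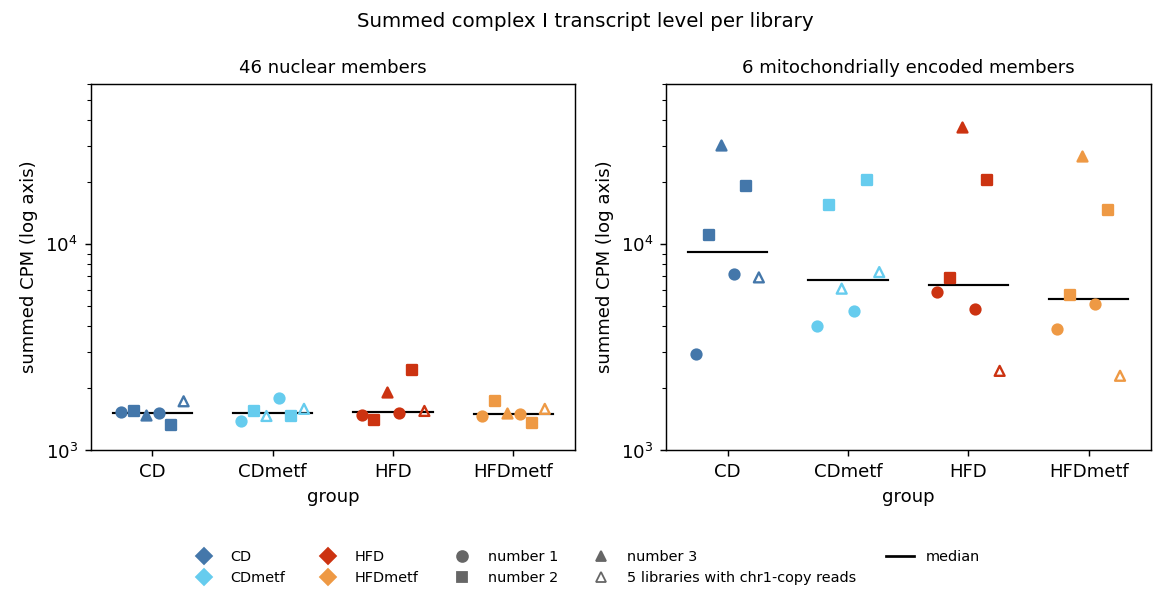
Summed level of the 46 nuclear members (left) and the 6 mitochondrially encoded members (right) in CPM on the same logarithmic axis, 1 symbol per library and 6 per group, with the group median as a line; symbol shape gives the replicate number and open symbols the 5 copy-read libraries. The nuclear sums lie between 1336 and 2463 CPM, while the mitochondrial sums spread from 2302 to 36994 CPM within and across groups.

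Levels between genes were compared per kilobase of annotated exon (CPM per kb), since longer genes yield more reads. For some of the nuclear members, the median over the 24 libraries was 50.5 CPM per kb for Ndufb11 of the distal membrane arm (range 40.9 to 108), 50.0 for Ndufa8 of the proximal arm (range 36.1 to 77.1) and 46.5 for Ndufa4 (range 26.5 to 77.7), and these ranges overlapped. The markers Ndufv1, which binds NADH, and Ndufs1, the large iron-sulfur subunit, stood at 27.5 and 10.6 CPM per kb. The lowest were Ndufb2 (1.03, range 0.617 to 1.60) and Ndufa4l2 (0.604, range 0 to 2.91), and 7 of the 8 assembly factors, Ndufaf1 to Ndufaf7, lay at 5.75 CPM per kb or less, while Ndufaf8 had 11.9.

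Ndufa4l2 was listed at 0 in 2 libraries and reached 36 counts at most, and Ndufaf6, an assembly factor, also fell under 3 counts in at least 1 library. Leaving out Ndufa4l2, the coefficient of variation of the CPM over all libraries had a median of 26.9% among 45 nuclear members. It was smallest for Ndufs7, an iron-sulfur subunit of the Q module (12.5%), and largest for Ndufb4 of the distal arm (64.3%). The mitochondrial genes tested varied by 52.9% (mt-Nd4) to 127% (mt-Nd6). Their median level per kb was 1780 CPM for mt-Nd1 (range 489 to 9939), 1248 for mt-Nd4 (526 to 3403), 1230 for mt-Nd5 (421 to 6644), 682 for mt-Nd2 (213 to 6676) and 624 for mt-Nd6 (229 to 8637), and these ranges overlapped too. Unlike the others, mt-Nd6 is encoded on the minus strand of the mitochondrial genome.

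As a sequence feature outside the rule for members, promoters were searched for the NRF1 motif, the palindrome-like binding sequence of a transcription factor for nuclear genes of mitochondrial proteins. RefSeq promoter sequences (GRCm38.p6, 250 bases before to 50 after the start site, both strands) were at hand for 40 of the 46 nuclear members, and 9 of these (22.5%) held a match, compared with 5.19% of 27025 genes and 7.44% of 16522 protein-coding genes. The 9 were Ndufa5, Ndufa6, Ndufa8, Ndufa11, Ndufaf4, Ndufaf5, Ndufb4, Ndufs5 and Ndufs6, with 3 matches in Ndufb4. The stretch around a match is shown for 4 of them, 3 of which recur in the comparisons below; the capitals mark the match, and each stretch ends before the start site.
Ndufaf4 (window chr4:24897833-24898132, plus strand): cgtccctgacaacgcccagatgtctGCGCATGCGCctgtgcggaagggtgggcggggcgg
Ndufb4 (window chr16:37654319-37654618, minus strand): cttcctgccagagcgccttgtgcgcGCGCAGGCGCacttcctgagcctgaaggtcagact
Ndufs6 (window chr13:73328433-73328732, minus strand): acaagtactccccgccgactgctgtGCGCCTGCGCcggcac
Ndufa11 (window chr17:56717512-56717811, plus strand): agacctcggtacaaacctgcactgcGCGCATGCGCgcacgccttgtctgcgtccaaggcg

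The diet contrasts asked whether the high-fat diet changed complex I transcripts without and with metformin. In the HFD vs. CD contrast, no member passed an FDR of 0.05 in edgeR's quasi-likelihood test (0 of 45 nuclear and 0 of 5 mitochondrially encoded), as was the case for 0% of the 14076 genes tested. At an unadjusted p under 0.05 the counts were also 0 of 45 and 0 of 5, beside 4.63% of all genes. DESeq2, limma-voom and limma-voom with sample quality weights called 0 members as well, beside 0.0924%, 0% and 10.1% of all genes.

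The fitted change was positive for 40 of 45 nuclear members, with a median logFC of 0.12 against -0.005 over all genes. By module the median logFC was 0.075 for the N module, 0.15 for the Q module, 0.23 for the proximal arm, 0.20 for the distal arm and 0.03 for the assembly factors. The distal-arm list includes Ndufb1-ps, which is not a member. The 4 smallest nuclear p-values belonged to Ndufc2 of the proximal arm (logFC = 0.34, SE = 0.17, FDR = 0.9997), Ndufb11 (0.33), Ndufb5 of the distal arm (0.20) and Ndufs5 of the proximal arm (0.36). For Ndufb11 the levels were 38.3 to 56.4 CPM in CD (median 43.2) and 37.8 to 98.5 in HFD (median 52.5), so the groups overlapped, and the highest value was again HFD F2. Without HFD F2 the median nuclear logFC was 0.04, and the direction of Ndufs5 turned with quality weights (-0.13). The 8 B cell markers had a median logFC of 1.94 in this contrast, with unadjusted p under 0.05 for 6 of them. In sum they stood at 6.03 to 65.9 CPM in CD (median 15.5) and at 12.3 to 279 CPM in HFD (median 24.998), so the groups overlapped, and their part in the nuclear values was not tested.

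The mitochondrially encoded members had a median logFC of 0.04 in the HFD vs. CD contrast, from -0.43 to 0.11. Without HFD M3, the library of lowest ileal marker level, this median was -0.46. The level of mt-Nd1, the subunit at the junction of both arms, ran from 759 to 7208 CPM in CD (median 2405) and from 468 to 9512 in HFD (median 1668), and the range of HFD enclosed that of CD.

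In the HFDmetf vs. CDmetf contrast, again 0 of 45 nuclear and 0 of 5 mitochondrially encoded members passed the FDR (0% of all genes) or an unadjusted p under 0.05 (7.87% of all genes). DESeq2 and limma-voom called 0 members too. The nuclear median logFC was 0.02, with 26 members positive and 19 negative, and that of all genes was 0.03. The smallest nuclear p-values were those of Ndufa1 of the proximal arm (logFC = -0.35, SE = 0.22, FDR = 0.692), Ndufb9 (-0.27) and Ndufb4 (-0.40) of the distal arm, and Ndufs7 (0.13). The mitochondrial median was 0.08, and it was -0.79 when a term for the 5 copy-read libraries was added, a setting chosen after seeing the data.

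The metformin contrasts asked whether treatment changed these transcripts on either diet. In the HFDmetf vs. HFD contrast, 0 of 45 nuclear and 0 of 5 mitochondrially encoded members had an FDR under 0.05 (0% of all genes). An unadjusted p under 0.05 was reached by 4 nuclear members, all lower in HFDmetf, which is 4 of 45 against 6.61% of all genes in either direction and 2.82% lower. The fitted change was negative in 36 of 45 nuclear members with a median logFC of -0.15 (0.03 over all genes), and by module the median was -0.18 for the N module, -0.03 for the Q module, -0.15 for the proximal arm, -0.22 for the distal arm and 0.10 for the assembly factors.

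Ndufa1, a small accessory subunit of the proximal arm, had 12.02 to 33.9 CPM in HFD (median 19.9) and 9.42 to 18.3 in HFDmetf (median 13.04), with a logFC of -0.67 (SE = 0.22, FDR = 0.640, edgeR). Ndufc2, another accessory subunit, had 27.3 to 53.5 CPM in HFD (median 33.6) and 20.4 to 33.6 in HFDmetf (median 27.1), with a logFC of -0.44 (SE = 0.17, FDR = 0.640). The ranges of both genes overlapped, and HFDmetf was lower in 4 of the 6 pairs matched for labelled sex and number. With HFD M2 and HFD F2 exchanged, as their Xist and Y-linked counts have it, this was 4 of 6 for Ndufa1 and 5 of 6 for Ndufc2.

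Ndufa2 of the N module had 11.5 to 29.8 CPM in HFD (median 19.2) and 11.4 to 17.5 in HFDmetf (median 13.9), with a logFC of -0.51 (SE = 0.20). Ndufaf8, an assembly factor, had 7.29 to 16.3 CPM in HFD (median 12.2) and 7.22 to 12.4 in HFDmetf (median 8.68), with a logFC of -0.41 (SE = 0.19). Both were lower in 5 of 6 pairs as labelled, in 6 of 6 (Ndufa2) and 4 of 6 (Ndufaf8) with those 2 libraries exchanged, and both ranges overlapped. In the first 3 of these genes the highest HFD libraries were HFD M3 and HFD F2, and HFD F3 and the library labelled HFD M2 lay inside the HFDmetf range.

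**Figure D2:**
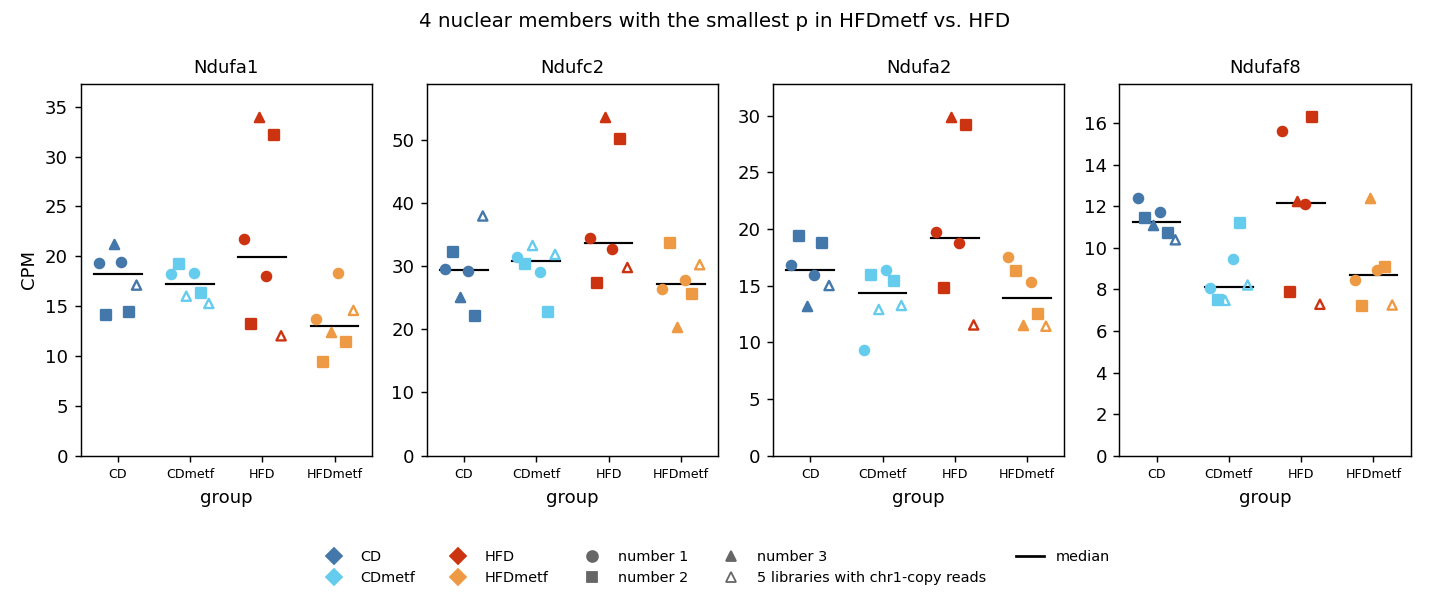
Levels in CPM (linear axis from 0) of Ndufa1, Ndufc2, Ndufa2 and Ndufaf8, 1 symbol per library and 6 per group, with the median as a line, shapes for replicate numbers and open symbols for the 5 copy-read libraries. HFD is the most spread group in each panel, with Ndufa1 from 12.02 to 33.9 CPM, and it overlaps HFDmetf in all 4 genes.

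These 4 genes passed the FDR in none of the edgeR fits, DESeq2 or limma-voom. Limma-voom with sample quality weights called Ndufa2 (logFC = -0.33, FDR = 0.0470) and Ndufaf8 (logFC = -0.42, FDR = 0.0104). That fit called 18% of all 14076 genes, 1411 higher and 1127 lower, so these calls do not set complex I apart. Without HFD F2 the nuclear median logFC moved to -0.02. All 4 genes belong to the shorter members: across the 45 tested nuclear members the logFC and the exon length had a Spearman rho of 0.37 (0.16 across all 14076 genes, as a description), and the median logFC was -0.21 for the 22 tested members with exons below the median length and -0.08 for the 23 others. The summed level of 7 absorptive enterocyte markers, none at 0 in either group, was 17558 to 40475 CPM in HFD (median 32186) and 5264 to 30911 in HFDmetf (median 20186). The summed level of 8 B cell markers was 12.3 to 279 CPM in HFD (median 24.998) and 6.88 to 24.5 in HFDmetf (median 17.95), and 7 of the 8 were lower at an unadjusted p under 0.05 (median logFC = -2.48). The part of length, enterocyte content and B cell content in the result was not tested.

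The mitochondrially encoded members had a median logFC of -0.37 in the HFDmetf vs. HFD contrast, with 5 of 5 negative and 0 at an unadjusted p under 0.05. mt-Nd1 ranged from 468 to 9512 CPM in HFD and from 470 to 6952 in HFDmetf (median 1467), and was lower in 5 of 6 pairs as labelled (4 of 6 with HFD M2 and HFD F2 exchanged). mt-Nd4, a proton-pumping subunit, was lower in 6 of 6 (5 of 6 exchanged). The fitted median logFC was 0.16 without HFD M3 and -0.79 without HFDmetf M3.

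In the CDmetf vs. CD contrast, 0 of 45 nuclear and 0 of 5 mitochondrial members passed the FDR (0% of all genes), and 1 nuclear member had an unadjusted p under 0.05 (5.14% of all genes, 2.41% lower). This was again Ndufaf8, with 10.4 to 12.4 CPM in CD (median 11.3) and 7.48 to 11.2 in CDmetf (median 8.13), a logFC of -0.39 (SE = 0.19, FDR = 0.940) and lower levels in 5 of 6 pairs. The next were Ndufb4 (logFC = 0.58, SE = 0.30), Ndufaf6 (0.50) and Ndufaf3, an assembly factor (0.26). DESeq2 and both limma-voom fits called 0 members. The CDmetf vs. CD and HFDmetf vs. HFD contrasts use different animals, and the test of their difference for Ndufaf8 gave a logFC of -0.02 (SE = 0.27, FDR = 0.992). The B cell markers were higher in CDmetf than in CD at p under 0.05 before adjustment for 8 of 8 (median logFC = 2.35), with 9.92 to 368 CPM in sum in CDmetf (median 60.9), and their part was not tested.

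The nuclear median logFC in CDmetf vs. CD was 0.01, with 27 positive and 18 negative. The mitochondrial median was -0.38, although mt-Nd1 was higher in CDmetf in 4 of 6 pairs. It was -0.09 without CD M3, and 0.24 with the term for the 5 copy-read libraries.

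The diet by metformin interaction tests whether the response to metformin differed between diets. No member passed the FDR (0 of 45 and 0 of 5, 0% of all genes) or an unadjusted p under 0.05 (6.03% of all genes) in edgeR. In DESeq2, 1 of 45 nuclear members had an unadjusted p under 0.05. No share of all genes was at hand for this count, so nothing is read from it. At the FDR, DESeq2 called 0 members, beside 0.0284% of all genes. The smallest nuclear p-values were those of Ndufa1 (logFC = -0.63, SE = 0.31, FDR = 0.799), Ndufc2 (-0.46), Ndufb4 (-0.79) and Ndufs4 of the N module (-0.37). The medians were -0.15 for nuclear and -0.007 for mitochondrially encoded members. For the 8 B cell markers the median logFC was -4.87 in the interaction and -2.72 in HFDmetf vs. CDmetf, each with p under 0.05 before adjustment for 8 of 8, and their part was not tested.

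**Figure D3:**
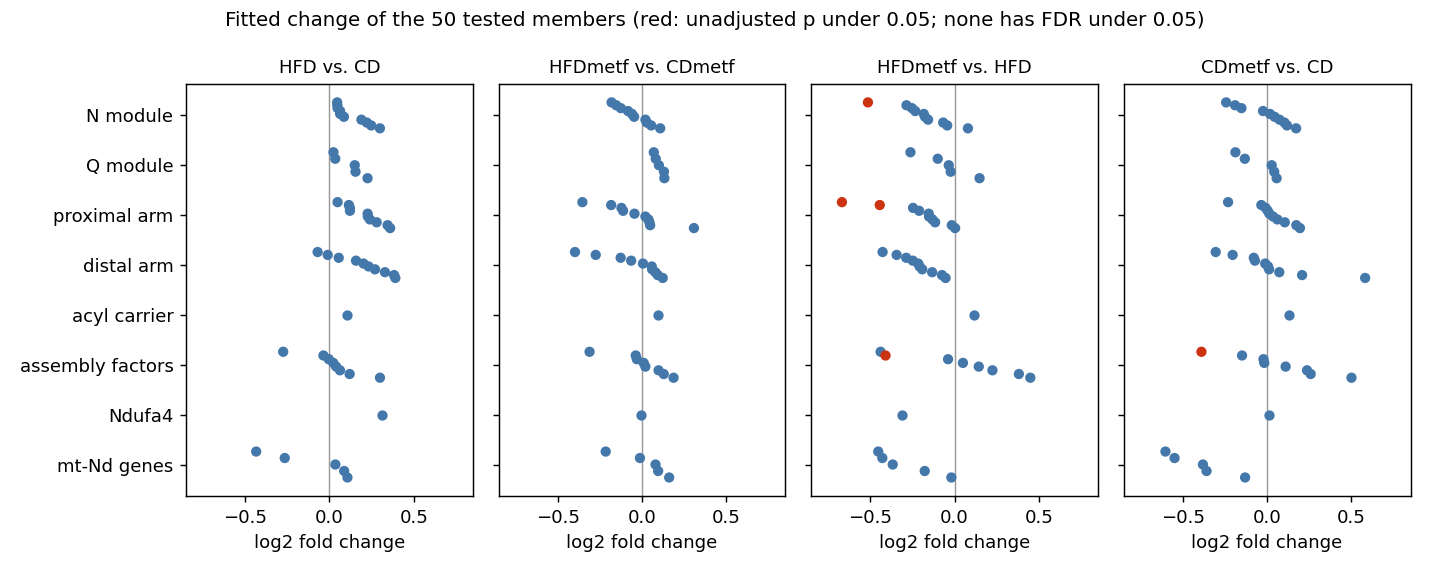
Fitted log2 fold change (horizontal axis) of the 50 tested members in the diet and metformin contrasts, 1 point per gene, grouped by module; red points have an unadjusted p under 0.05. Points lie mostly right of 0 in HFD vs. CD and left of 0 in HFDmetf vs. HFD, which share the HFD libraries, and the red points are the 4 nuclear genes of HFDmetf vs. HFD and Ndufaf8 in CDmetf vs. CD.

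In none of the group contrasts did a member have ranges that did not overlap, which held for 0.0853% of all genes in HFD vs. CD, 0.142% in HFDmetf vs. CDmetf, 0.0355% in HFDmetf vs. HFD and 0.149% in CDmetf vs. CD. The markers Ndufs1 and Ndufv1 stayed within a logFC of -0.15 to 0.10 in the group contrasts and the interaction. Ndufv1 had 56.6 to 83.8 CPM in CD (median 73.0), 57.2 to 92.1 in CDmetf (median 69.8), 64.0 to 89.5 in HFD (median 72.1) and 56.9 to 92.6 in HFDmetf (median 70.9). The 4 ranges overlapped almost fully.

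Other mitochondrial genes were described by the same fit. Among 36 tested nuclear subunits of complexes II to V, 0 passed the FDR in the 4 contrasts and the interaction, and in HFDmetf vs. HFD 35 had a negative logFC (median -0.23) with p under 0.05 before adjustment for 2. In HFD vs. CD, 33 of the 36 were positive (median 0.18). Of 9 further complex I assembly factors, 14 genes of mitochondrial biogenesis and mtDNA transcription and 11 genes of mitochondrial RNA handling, 0 passed the FDR in these contrasts. Their medians in HFDmetf vs. HFD were 0.12, -0.03 and 0.15.

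The levels of the mitochondrially encoded members are given by replicate number, number 1 first. In edgeR's F test of the replicate number term, mt-Nd2 (FDR = 0.038) and mt-Nd6 (FDR = 0.044) passed, beside 16.6% of all genes. The FDR in this test was 0.052 for mt-Nd5, 0.081 for mt-Nd4 and 0.081 for mt-Nd1. The level of mt-Nd1 was 759 to 1985 CPM over 8 libraries (median 1322), compared with 1577 to 6061 for number 2 (median 4190) and 468 to 9512 for number 3 (median 1703). For mt-Nd2, a proton-pumping subunit, it was 311 to 879 CPM (median 412), 579 to 3365 (median 2598) and 221 to 6930 (median 763). For mt-Nd6 it was 175 to 349 CPM (median 219), 390 to 2737 (median 1206) and 119 to 4483 (median 210), so that numbers 1 and 2 did not overlap (0.284% of all genes).

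In the contrast of number 2 with number 1, 0 of 5 mitochondrially encoded members passed the FDR (0.291% of all genes), and all 5 had an unadjusted p under 0.05 (18.9% of all genes). The logFC was 2.53 for mt-Nd6 (SE = 0.75, FDR = 0.103), 2.28 for mt-Nd2 (SE = 0.65), 1.66 for mt-Nd5 (SE = 0.50), 1.55 for mt-Nd1 (SE = 0.52) and 0.78 for mt-Nd4 (SE = 0.33). DESeq2 called 3 of the 5, beside 4.31% of all genes. Of the 45 nuclear members 0 passed the FDR. At p under 0.05 without adjustment, 8 were higher and 3 lower (10.2% and 8.74% of all genes). The smallest p-values were those of Ndufb8 of the distal arm (logFC = 0.57), Ndufa4 (-0.64), the assembly factor Ndufaf2 (0.86) and Ndufb9 (0.53). DESeq2 called 3 of 45 nuclear members. The 7 absorptive enterocyte markers all had a negative logFC here (median -0.85, 4 with p under 0.05 before adjustment), as had the 3 exocrine pancreas markers tested. All 3 ileal markers (median 1.40) and 7 tested smooth muscle markers (median 0.38, 2 with p under 0.05 before adjustment) were positive. So were all tested stroma, adipocyte, enteric neuron and skeletal muscle markers, while epithelial, B cell and T cell markers went both ways. The part of these lists was not tested. Of Ndufaf2, 80.5% of the 100-base stretches also occurred in other transcripts, so its counts are uncertain.

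Within replicate number 3 the libraries fell apart. In CD M3, HFD M3 and HFDmetf M3 the summed mitochondrially encoded level was 30213, 36994 and 26757 CPM, above every other library with TMM, although CD M3 had 5705 CPM with its raw library size. The ratio to the nuclear sum was 20.3, 19.3 and 17.6 there and at most 14.4 in the other libraries. In the 5 copy-read libraries the summed level was 2302 to 7325 CPM (median 6086). The share of unmapped reads was 27.6% to 38.05% in the first 3 and 12.4% to 19.8% in the 5. It was 7.58% to 25.997% for number 1 and 21.7% to 46.9% for number 2. By label the first 3 were male, and the 5 were female except CDmetf M3, so this split largely coincides with sex. The part of sex and of these other differences in the mt-Nd levels was not tested.

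Number 3 against number 1 gave 2 of 5 mitochondrially encoded members with an FDR under 0.05, both higher (16.4% of all genes, 9.88% higher), namely mt-Nd2 (logFC = 2.14, SE = 0.71, FDR = 0.0441) and mt-Nd4 (logFC = 0.98, SE = 0.33, FDR = 0.0483). With the term for the 5 copy-read libraries, or without them, 5 of 5 were called (1.85% and 0.882% of all genes). The median logFC was 3.07 and 3.09, against 1.44. Number 3 then rested on CD M3, HFD M3 and HFDmetf M3, which had the highest mitochondrial sums with TMM. These settings were chosen after the data were seen, so their calls are no separate support. With both libraries of discordant sex (HFD M2, HFD F2) left out, 0 were called. Leaving out 1 library at a time gave 0 calls for 15 of the 24 libraries and 1 for 4 of them, so these 2 calls did not hold. Number 3 against number 2 gave 0 of 5 (8.23% of all genes), with 0 at an unadjusted p under 0.05 (28.5% of all genes), and a median logFC of -0.19 that became 1.60 with the term.

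**Figure D4:**
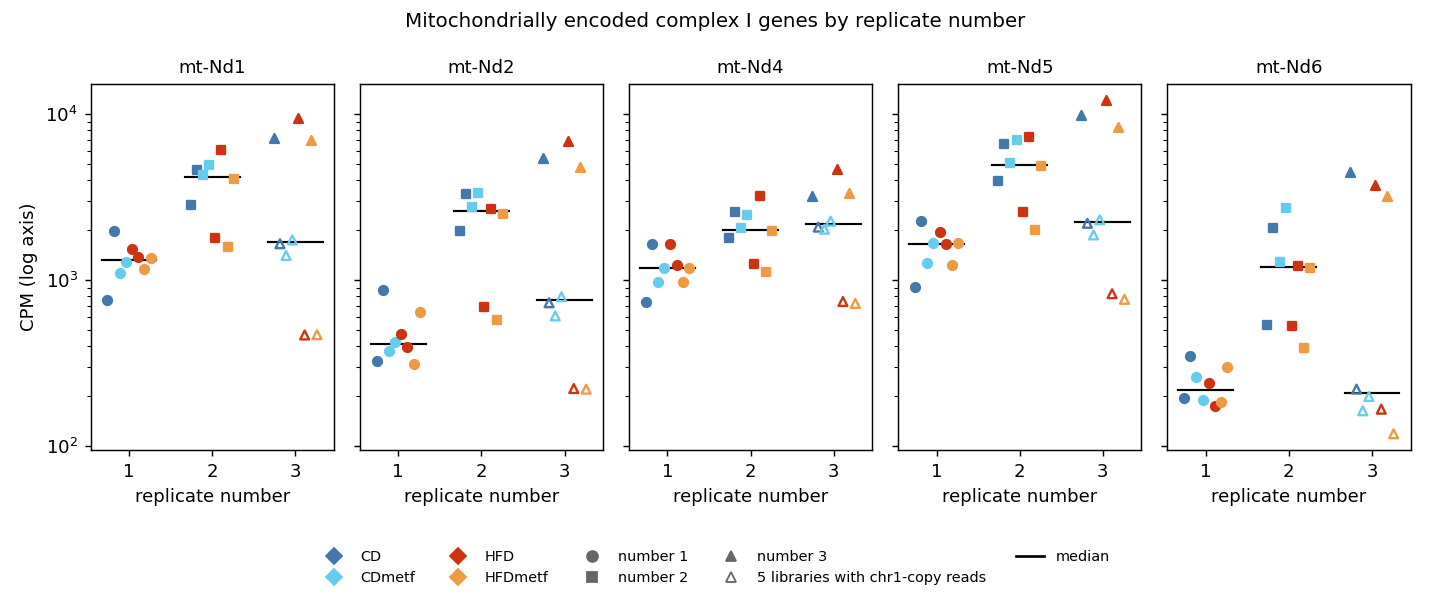
Levels in CPM (logarithmic axis) of mt-Nd1, mt-Nd2, mt-Nd4, mt-Nd5 and mt-Nd6 by replicate number, 8 libraries each, with the median as a line, colours for groups and open symbols for the 5 copy-read libraries. In each panel the 3 filled triangles of number 3 lie above the 5 open ones, and for mt-Nd6 the libraries of number 2 all lie above those of number 1.

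Other genes of the mitochondrial genome did not share one pattern. The level of mt-Co1, a core subunit of cytochrome c oxidase, varied 3.00-fold over all libraries, from 12017 to 36079 CPM, and mt-Cytb of complex III varied 9.37-fold, from 1567 to 14689 CPM. mt-Cytb was 10055 to 14689 CPM in the same 3 libraries of number 3 and 1770 to 2997 in the 5 copy-read libraries, and for mt-Co1 these ranges, 14847 to 36079 and 18099 to 22854, overlapped. Of 5 other mitochondrially encoded protein genes tested, 4 were higher in number 3 than in number 1 at the FDR threshold (median logFC 4.61), beside 9.88% of all genes. The list holds mt-Co2, mt-Atp6 and mt-Co3, over 99% of whose stretches have a copy elsewhere. These 3 genes had 4.34 to 45.96 CPM in the 5 copy-read libraries and at most 2.998 in the other 19, so their calls rest on libraries singled out by such reads.

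Among nuclear members, number 3 against number 1 gave 8 of 45 with an FDR under 0.05 (16.4% of all genes), 7 higher and 1 lower (9.88% and 6.56% of all genes), a share close to that of all genes. Ndufb4 of the distal arm had 6.05 to 9.80 CPM for number 1 (median 8.84) and 4.96 to 29.2 for number 3 (median 23.8), with a logFC of 1.12 (SE = 0.26, FDR = 0.00650). Ndufs4, an accessory subunit of the N module, had 17.8 to 38.2 (median 25.3) and 29.1 to 52.7 CPM (median 44.2), with a logFC of 0.73 (SE = 0.15, FDR = 0.00250). Ndufaf4, an assembly factor, had 8.83 to 16.5 (median 12.6) and 8.85 to 28.7 CPM (median 22.5), with a logFC of 0.83 (SE = 0.16, FDR = 0.00227). The ranges of all 3 genes overlapped. In the same contrast 4 of 8 B cell markers (median logFC = -2.01) and 2 of 3 exocrine pancreas markers (-3.39) were lower at the FDR threshold, and the tested adipocyte and T cell markers, 4 of each, were all negative. Their part was not tested.

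The further called genes were Ndufv2, an iron-sulfur subunit of the N module (logFC = 0.44), Ndufc1 of the proximal arm (0.57), Ndufaf2 (0.72) and Ndufb5 (0.31), which were higher, and Ndufaf3 (-0.48), which was lower. Against number 2, number 3 was higher in Ndufc1 (logFC = 0.70, FDR = 0.0292) and lower in Ndufa8 (logFC = -0.40, FDR = 0.0328) and Ndufv3, an accessory subunit of the N module (logFC = -0.62, FDR = 0.0349), which is 1 higher and 2 lower of 45 beside 4.34% and 3.89% of all genes. For Ndufb4, 33.4% of the stretches also occur in the pseudogene Ndufb4c, which had at most 8 counts.

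Several of these values differed between the 5 copy-read libraries and the others. Ndufb4 was 23.1 to 29.2 CPM there and 4.96 to 11.0 in the other 3 libraries of number 3, and without the 5 libraries its logFC against number 1 was 0.15. Ndufv3 was 21.8 to 29.3 CPM in the 5 and 36.4 to 70.2 in the other 19 libraries. Ndufa11 of the proximal arm (6.48 to 9.24 against 10.9 to 22.5 CPM) and Ndufb7 of the distal arm (23.2 to 31.5 against 31.8 to 77.1 CPM) did not overlap either, and these 3 of 45 nuclear members, all lower, stand beside 2% of all genes lower, 3.28% higher and 5.29% in either direction. Without the 5 libraries, 1 nuclear member was called in number 3 against 1 (0.882% of all genes) and 0 against 2 (0% of all genes). The 5 libraries had 18233728 to 40384234 gene counts, while 17 of the other 19 had fewer than the lowest of the 5, and the part of depth in these values was not tested.

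**Figure D5:**
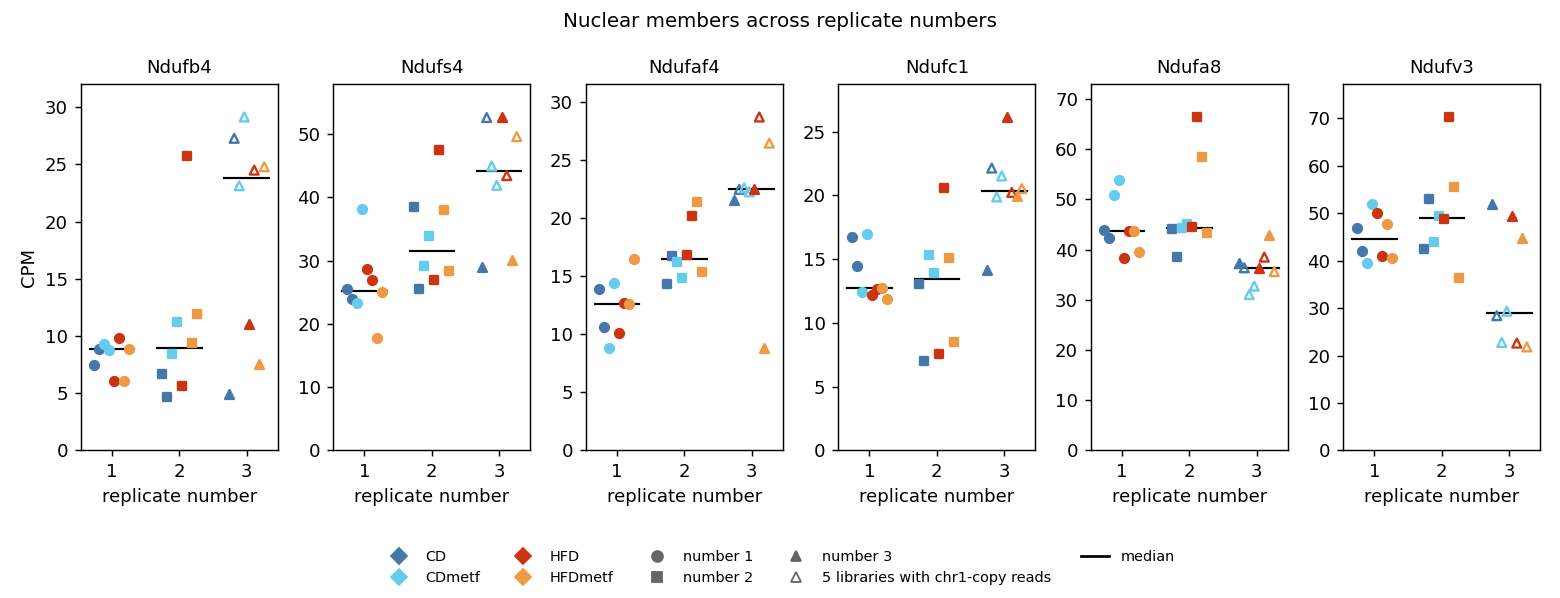
Levels in CPM (linear axes from 0) of Ndufb4, Ndufs4, Ndufaf4, Ndufc1, Ndufa8 and Ndufv3 by replicate number, 8 libraries each, with the median as a line, colours for groups and open symbols for the 5 copy-read libraries. The open triangles are the highest of Ndufb4 in number 3, at 23.1 to 29.2 CPM, and the lowest of Ndufv3, at 21.8 to 29.3 CPM.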

How the data were processed

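Per the labels and methods, the authors trimmed reads with Trimmomatic 0.39, then aligned and counted them on GRCm38 with STAR 2.5.3a; the deposited values are raw counts per gene in 24 libraries of 1 animal each. The annotation and the counted strand are not given in the sources used here. All 55536 gene identifiers match GENCODE M21, which supplied symbols, gene types and exon lengths. Genes were tested with edgeR 4.0.16 in R 4.3.3 (filterByExpr, TMM, quasi-likelihood fit with group, sex and replicate number, 17 residual degrees of freedom, Benjamini-Hochberg over 14076 genes, threshold 0.05). Whether the numbers pair libraries was checked by correlating deviations: the mean r was 0.13 over 72 pairs of the same number, the lowest -0.46, and -0.06 over 144 others. Members and gene lists were chosen with earlier results of these data known. Named were all mt-Nd genes, Ndufs1, Ndufv1, the genes of highest and lowest level, those under 3 counts in a library, and in each contrast the called nuclear members, up to 10, or else the 4 of smallest p; Ndufa11 and Ndufb7 were chosen after their values were seen. One gene that this rule names is not reported here. Alternatives were limma 3.58.1 (voom, also with quality weights), DESeq2 1.42.0, other normalizations, filters, terms, and leaving out libraries.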

Additional observations from a re-analysis of the deposited data

Results flagged for a closer look

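In 15 of 128 combinations of a gene and a group of 6 libraries, 1 library stood apart from the other 5 by Dixon's test. For independent, normally distributed values, chance gives about 1 in 20. Some genes were named from these same values, and several flags share a library, so no excess over chance is claimed. The level of Ndufb11 was 98.5 CPM in HFD F2 against 60.1 in the next library, that of Ndufs5 26.99 against 17.98 in the same library, and that of Ndufa8 66.4 against 44.4. Ndufa8 also stood apart in HFDmetf M2 (58.4 against 43.8 CPM). Ndufb4 was 27.3 CPM in CD F3 against 8.91, and 24.8 CPM in HFDmetf F3 against 11.9. Ndufv2 was 94.8 CPM in CD F3 against 66.5. Ndufaf8 was 12.4 CPM in HFDmetf M3 against 9.10, and Ndufaf3 was 8.46 CPM in HFD F1 against 4.96.

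Of the mitochondrially encoded members, mt-Nd2 was 6930 CPM in HFD M3 against 2682, and mt-Nd6 was 3743 CPM there against 1225. In HFDmetf M3, mt-Nd6 was 3219 CPM against 1188. The level of mt-Nd3 was 1.84 CPM in CD F3 against 0.335, 4.27 CPM in CDmetf F3 against 0.686, and 0.712 CPM in HFDmetf F3, where the 5 others were at 0. CD F3, CDmetf F3 and HFDmetf F3 are copy-read libraries, which were singled out after the data were seen.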

How the results depend on the processing

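The replicate numbers were part of the model, and whether they pair the libraries is not stated; not every same-numbered pair correlated above 0.1. Without the replicate block, 0 members passed the FDR in the 4 group contrasts and the interaction, and the nuclear median logFC was 0.15 in HFD vs. CD, 0.02 in HFDmetf vs. CDmetf, -0.15 in HFDmetf vs. HFD, 0.02 in CDmetf vs. CD and -0.16 in the interaction. The mitochondrial medians were 0.005, -0.08, -0.41, -0.38 and -0.08.

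In the group contrasts, 0 members passed under the alternatives run except limma-voom with quality weights. That fit called 2 nuclear members in HFDmetf vs. HFD, beside 2538 of 14076 genes (18%), and gave -0.13 for Ndufs5 in HFD vs. CD. Without TMM, the median summed nuclear level was 1624 CPM in CD, 1674 in CDmetf, 1666 in HFD and 1727 in HFDmetf. With TMM it was 1522, 1512, 1537 and 1511 CPM. The cause of these and the following shifts was not tested.

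In number 2 vs. 1, nuclear calls were 10 with quality weights, 3 with DESeq2, and 2 with the term for the 5 copy-read libraries or without them and CD M3, and mitochondrial calls were 4, 3, 4 and 4 in these settings and 4 without the 5 libraries. As shares of all genes, quality weights called 12.8%, 48.3% and 39.1% in number 2 vs. 1, 3 vs. 1 and 3 vs. 2, DESeq2 4.31%, 24.1% and 16.8%, limma-voom 0.277%, 31.3% and 13.8%, and the term 1.31%, 1.85% and 0.0278%. In number 3 vs. 1, nuclear calls were 15 with limma-voom, 24 with quality weights, 13 with DESeq2, 4 without a filter, 2 with the term, 1 without the 5 libraries and 1 without these and CD M3. Mitochondrial calls were 1 with quality weights, 4 with DESeq2, 5 without a filter, 4 without a sex term, 1 with robust quasi-likelihood, 0 with HFD M2 and HFD F2 both left out, and 5 in each setting on the 5 libraries, with median logFC of 3.07, 3.09 and 3.15. In number 3 vs. 2, nuclear calls were 8 with limma-voom, 20 with quality weights, 6 with DESeq2, 5 with RLE, with library sizes without mitochondrial genes or with at least 10 counts in every sample, and 0 in each setting on the 5 libraries. Mitochondrial calls were 1 with quality weights, without a filter and with the term. Without a filter, the share of all genes called was 6.38% in number 3 vs. 1 and 2.59% in 3 vs. 2. Without a sex term it was 16.3% in number 3 vs. 1. In number 3 vs. 2, RLE called 8.63%, library sizes without mitochondrial genes 8.53% and at least 10 counts in every sample 13.2%. Robust quasi-likelihood and the settings that left out CD M3 or HFD M2 and HFD F2 are given without such shares.

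The direction in number 3 vs. 2 turned with the term, without the 5 libraries and without these and CD M3: the mitochondrial median and mt-Nd1 to 1.60, 1.58 and 1.66, mt-Nd5 to 1.58, 1.57 and 1.63, mt-Nd6 to 2.41, 2.46 and 2.46, and mt-Nd2 to 2.13, 2.10 and 2.31. In these settings number 3 rested on CD M3, HFD M3 and HFDmetf M3, and in the last on HFD M3 and HFDmetf M3 alone. Ndufv3 turned to 0.031 with the term and 0.018 without the 5 libraries. Without a sex term mt-Nd6 was 0.22 and mt-Nd2 0.056.

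Leaving out 1 library at a time gave 0 to 2 nuclear calls in number 2 vs. 1 (2 without HFDmetf M1), 3 to 13 in 3 vs. 1 (3 without CDmetf M1, CDmetf M3, HFD F1 or HFDmetf F3, 13 without HFDmetf M3) and 0 to 8 in 3 vs. 2 (0 without CD F2, CD F3, CDmetf F2, CDmetf F3, HFDmetf F2 or HFDmetf F3, 8 without CD M3), and 0 to 4 mitochondrial calls in 3 vs. 1 (4 without HFD F3 or HFDmetf F3, 0 without any of 15 libraries). In 3 vs. 2 the logFC ran from -0.58 to 0.022 for mt-Nd1, -0.52 to 0.050 for mt-Nd5, -0.71 to 0.33 for mt-Nd6 and -0.65 to 0.19 for mt-Nd2, each lowest without HFD M3. The counts of calls with 1 library left out have no share of all genes beside them, so they say nothing about complex I in particular. At the depth of the smallest library, 1829690 counts, differences in Ndufa4l2 were not detectable. Those in mt-Nd3 could not be seen in deep libraries either. It had 0 counts in HFD F1, the library with the most gene counts (40606442), and 97.6% of its stretches are shared.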
